A study of Mus musculus with 14 samples.

Results

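The genes described here are 7 markers of classical monocytes, namely Ly6c2, Plac8, F13a1, S100a4, Vcan, Fn1 and Thbs1. They were taken by gene symbol from a table of 19940 genes, each symbol matched 1 row, and all 7 passed the filter on low values that left 12096 genes for testing. They were followed in RNA sequencing libraries of monocyte-derived macrophages sorted from the inflamed central nervous system of mice with experimental autoimmune encephalomyelitis, a multiple sclerosis model, when disease peaked. There were 7 libraries of mCAT macrophages and 7 of wild-type (wt) macrophages.

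The mCAT donors had the genotype CCR2creERT2/+ mcat lsl/wt and the marker CD45.2. They carried on 1 Ccr2 allele a Cre recombinase that tamoxifen switches on, and on 1 allele a catalase directed to mitochondria that is silent until Cre removes a stop cassette. The wt donors carried CD45.1. Bone marrow of both donors had been mixed in equal numbers and given to irradiated hosts, so both genotypes could mature in the same animal. Tamoxifen is the labelled treatment of every library of both genotypes, so an effect of the drug itself cannot be told apart from the shared background. Because the recombinase sits in Ccr2, a gene of classical monocytes, catalase can be switched on only in cells that use or have used that gene. The sources used here give neither the ages of the mice nor whether a library pooled several animals. Libraries were made from polyadenylated RNA by Smart-seq2, which reads whole transcripts without recording their strand.

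Library codes begin with C1 (8 libraries) or C2 (6 libraries), and the sources used here do not say what the prefix means. The number after the prefix forms a code stem, and 6 stems are shared by 1 mCAT and 1 wt library. The 6 pairs are mCAT 5 with wt 5 (stem C2_1), mCAT 6 with wt 6 (C2_2), mCAT 7 with wt 7 (C2_4), mCAT 1 with wt 2 (C1_2), mCAT 2 with wt 3 (C1_3) and mCAT 4 with wt 4 (C1_5). The libraries mCAT 3 and wt 1, both of prefix C1, have no partner. Deviations from the genotype means correlated positively between the partners of every pair.

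Classical monocytes leave the blood at sites of inflammation and can turn into macrophages there. During that change they are known to lose surface antigens and adhesion molecules of the circulating cell, while lysosomal, complement and lipid-handling genes of the macrophage come up. The genes studied here stand for different sides of the monocyte. Ly6c2 encodes a lipid-anchored surface antigen, part of the Ly6C signal by which mouse classical monocytes are recognised. Plac8 encodes a small cysteine-rich protein abundant in myeloid cells, and S100a4 a calcium-binding protein that acts on cell motility. Vcan encodes versican, a large chondroitin sulphate proteoglycan. Fn1 encodes fibronectin, the matrix ligand of several integrins. Thbs1 encodes thrombospondin-1, a matrix-associated glycoprotein bound by CD36 and CD47. F13a1 encodes the catalytic subunit of coagulation factor XIII, a transglutaminase that cross-links fibrin. The rows are Ly6c2 (ENSMUSG00000022584, chromosome 15), Plac8 (ENSMUSG00000029322, chromosome 5), F13a1 (ENSMUSG00000039109, chromosome 13), S100a4 (ENSMUSG00000001020, chromosome 3), Vcan (ENSMUSG00000021614, chromosome 13), Fn1 (ENSMUSG00000026193, chromosome 1) and Thbs1 (ENSMUSG00000040152, chromosome 2).

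Values are given as normalised counts, obtained by undoing the transformation of the deposited values. The macrophage defining markers summed to between 993754 and 3685605 normalised counts in mCAT libraries and between 1120771 and 4628926 in wt libraries. None of the 11 failed the filter. Lyz2, which is also counted below among other classical monocyte genes, alone had 633465 to 4197782. Csf1r had 27045 to 78177, Adgre1 5486 to 32527 and Cd68 30599 to 97368. Estimated depth was 27.6 to 47.0 M reads (M, mega) in mCAT libraries and 16.6 (wt 7) to 42.6 M in wt libraries. Summed markers of platelets, a possible source of F13a1 and Thbs1 transcripts, ran from 41.2 to 141 in mCAT libraries and from 16.7 to 142 in wt libraries over 10 genes. Summed markers of fibroblasts and pericytes, a possible source of Fn1 and Vcan transcripts, covered 8 genes. They ran from 64.5 to 103 in mCAT libraries and from 55.7 to 265 in wt libraries. The 265 was that of wt 1, and the next highest was 113 (wt 4). The platelet and fibroblast sums lie far below the levels of F13a1, Thbs1 and Fn1, and in the same range as Vcan in its lowest libraries. Of these markers, 3 platelet genes and 3 fibroblast and pericyte genes passed the filter. How much RNA of the monocyte genes such cells hold beside their markers is not known here, so their share was not tested. In bulk RNA, fewer cells that express a gene and less RNA per cell cannot be told apart.

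Plac8, Vcan and S100a4 gave the most uneven levels between libraries, and the promoters of these 3 genes are shown so that the sequence before each start can be read beside the levels. Each is the 250 bases before the RefSeq start, from RefSeq on build GRCm38.p6, written 5′ to 3′ along the gene's own strand. The window of Plac8 is chr5:100572206-100572455 on the minus strand, that of Vcan chr13:89742513-89742762 on the minus strand and that of S100a4 chr3:90603520-90603769 on the plus strand. Capitals mark matches on either strand to 4 motifs: AGGAAG, the core bound by ETS factors such as PU.1, CCACCC, bound by KLF factors, CCAAT, the CCAAT box, and TATAAA, the TATA box.
Plac8: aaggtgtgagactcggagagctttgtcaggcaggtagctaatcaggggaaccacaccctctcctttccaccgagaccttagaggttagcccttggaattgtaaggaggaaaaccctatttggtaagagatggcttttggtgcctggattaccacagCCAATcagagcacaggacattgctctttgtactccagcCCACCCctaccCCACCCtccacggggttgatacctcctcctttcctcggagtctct
Vcan: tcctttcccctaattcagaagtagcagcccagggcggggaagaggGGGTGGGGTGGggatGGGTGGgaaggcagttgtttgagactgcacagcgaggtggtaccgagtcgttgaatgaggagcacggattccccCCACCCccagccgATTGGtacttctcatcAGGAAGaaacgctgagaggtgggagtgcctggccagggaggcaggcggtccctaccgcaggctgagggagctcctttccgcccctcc
S100a4: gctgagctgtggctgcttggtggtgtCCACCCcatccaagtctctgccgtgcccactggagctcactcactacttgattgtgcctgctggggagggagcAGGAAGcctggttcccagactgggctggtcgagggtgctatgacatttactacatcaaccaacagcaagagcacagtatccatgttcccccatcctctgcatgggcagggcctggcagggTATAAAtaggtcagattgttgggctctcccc

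The Plac8 window held 2 matches to the KLF motif and 1 to the CCAAT box, and the Vcan window held 4 to the KLF motif, 1 to the ETS motif and 1 to the CCAAT box. Adjoining capitals in the Vcan window belong to separate KLF matches on the other strand. The S100a4 window held 1 match each to the KLF motif, the ETS motif and the TATA box. Of 32851 RefSeq promoters of the same length, 28.1% held the KLF motif, 29.5% the ETS motif, 33.9% the CCAAT box and 12.4% the TATA box. The KLF motif was the only 1 of the 4 found in all 3 windows. It was not particular to these genes: 1 of the 2 F13a1 entries, not shown, held 2 matches to it, while the Ly6c2 entries held 0. Promoter entries were matched for 5 of the 7 genes, and Plac8 has a further entry with no match to any of the 4 motifs. Fn1 and Thbs1 had no entry.

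**Figure D1:**
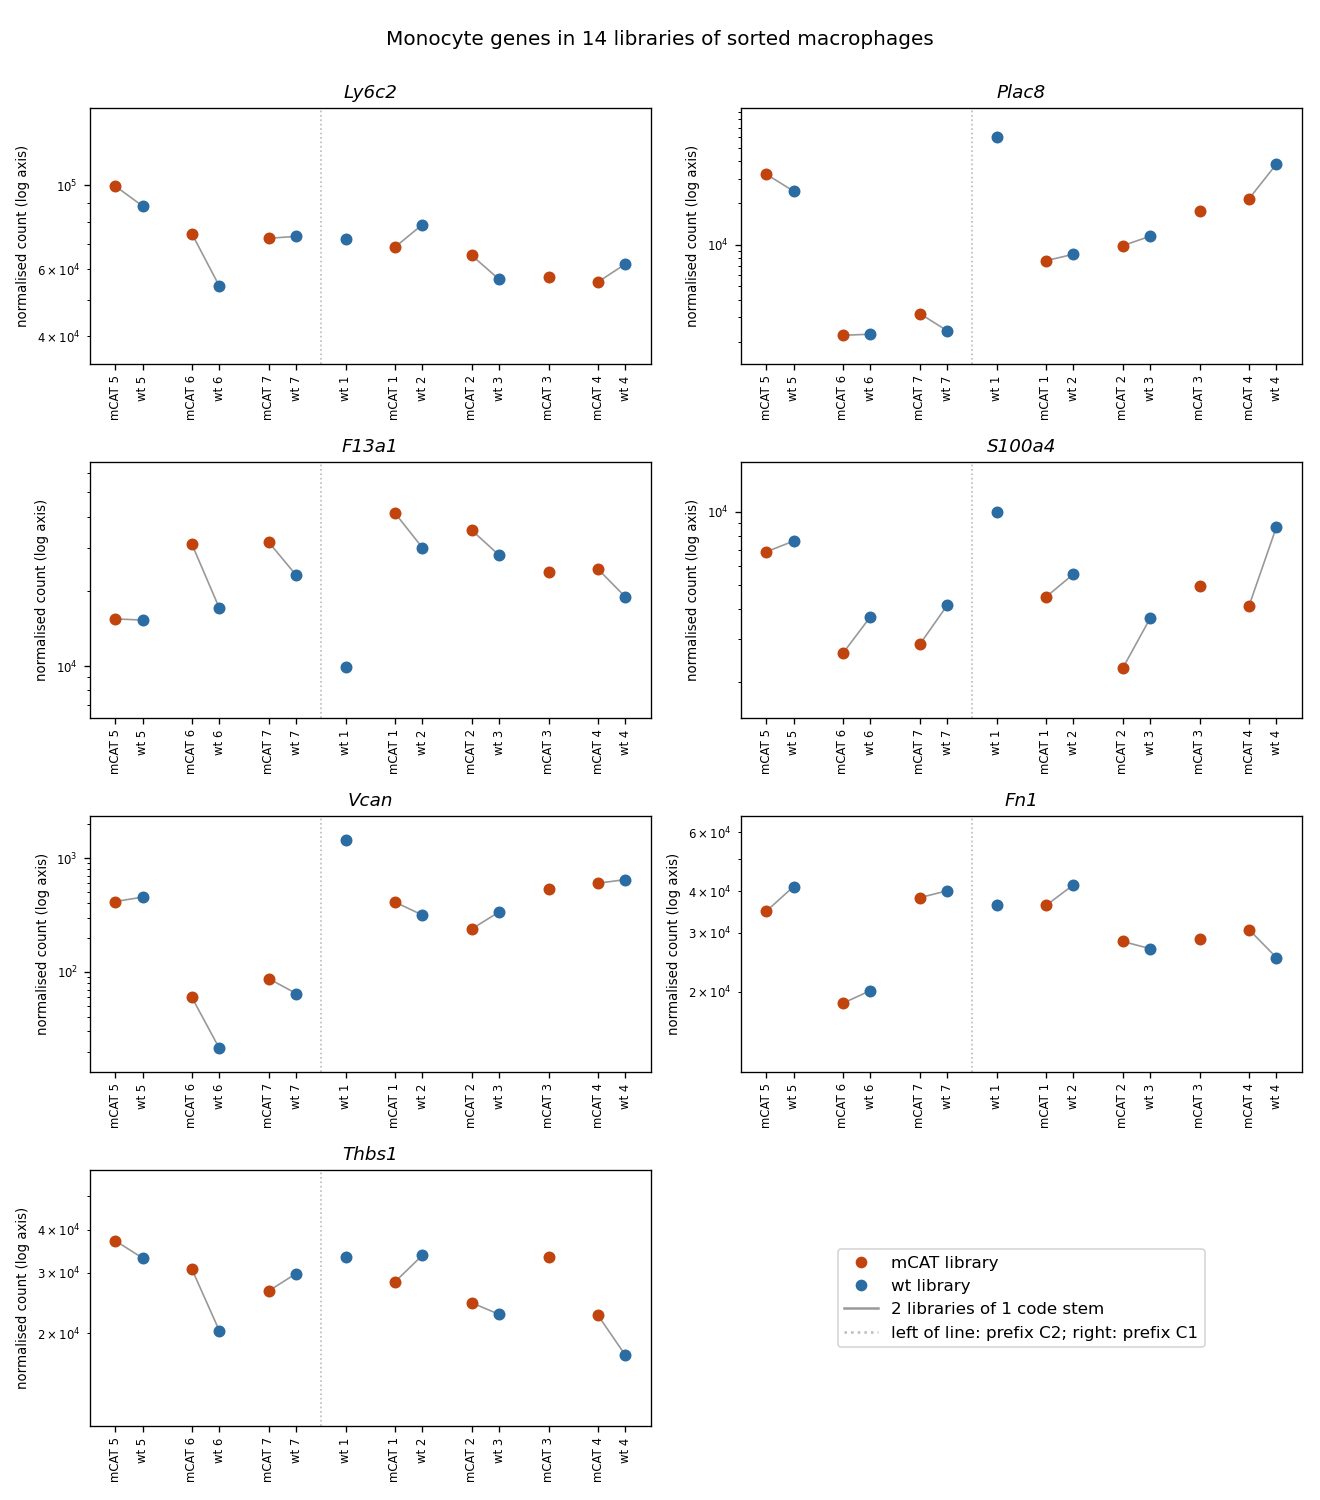
Normalised counts of each monocyte gene in every library, on log axes; orange points are mCAT and blue points wt libraries, and lines join the 2 libraries of a code stem. Prefix C2 lies left of the dotted line. Plac8 and Vcan are lowest in mCAT 6, wt 6, mCAT 7 and wt 7 and highest in wt 1, whereas Ly6c2, Fn1 and Thbs1 stay within a range of 2.26 times.

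The genes did not behave as a single group across these libraries. All libraries are of sorted macrophages, so a loss between monocyte and macrophage was not measured. Plac8 and Vcan swung widely, S100a4 and F13a1 moderately, and Ly6c2, Fn1 and Thbs1 the least of the 7. The highest library exceeded the lowest 27.1 times for Plac8 and 68.1 times for Vcan. The same ratio was 4.39 for S100a4, 4.16 for F13a1, 2.26 for Fn1, 2.15 for Thbs1 and 1.84 for Ly6c2. With genotype means removed, the SD of the deposited log2 values was 1.63 for Plac8, the third highest of the 12096 genes tested, and 1.10 for Vcan, ranked 51. The median gene tested had an SD of 0.29. Ly6c2 (SD 0.27) lay below that median, and Thbs1 (0.33), Fn1 (0.38), F13a1 (0.51) and S100a4 (0.57) above it, at percentiles 62.8, 75.6, 90.2 and 94.0 of the genes tested.

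Plac8 had 32317 normalised counts in mCAT 5 and 24352 in wt 5, 2221 in mCAT 6 and 2264 in wt 6, and 3188 in mCAT 7 and 2397 in wt 7. With prefix C1 it had 7673 in mCAT 1 and 8532 in wt 2, 9844 in mCAT 2 and 11519 in wt 3, and 21464 in mCAT 4 and 38206 in wt 4. The unpaired mCAT 3 had 17582 and the unpaired wt 1 had 60091. The 4 libraries of stems C2_2 and C2_4 were the lowest of all 14. Pair means varied more than the differences within pairs, although wt 7 lay nearer to wt 6 than to its partner mCAT 7. The SD of the 6 pair means was 1.55 on the log2 scale and that of the 6 within-pair differences 0.46, a ratio of 3.38 where the median gene tested had 0.79.

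Vcan followed nearly the same order of stems. It had 415 normalised counts in mCAT 5 and 454 in wt 5, 59.8 in mCAT 6 and 21.3 in wt 6, and 87.2 in mCAT 7 and 64.6 in wt 7. It had 410 in mCAT 1 and 316 in wt 2, 239 in mCAT 2 and 337 in wt 3, and 602 in mCAT 4 and 647 in wt 4. The level was 531 in mCAT 3 and 1451 in wt 1. The same 4 libraries were again the lowest and wt 1 the highest, and stem C2_1 lay among the C1 libraries. Without wt 1 the highest library exceeded the lowest 30.3 times for Vcan and 17.2 times for Plac8.

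S100a4 was lower in mCAT than in wt in all 6 pairs. It had 6852 normalised counts in mCAT 5 and 7587 in wt 5, 2622 in mCAT 6 and 3702 in wt 6, and 2851 in mCAT 7 and 4130 in wt 7. It had 4468 in mCAT 1 and 5552 in wt 2, 2280 in mCAT 2 and 3658 in wt 3, and 4109 in mCAT 4 and 8692 in wt 4. The unpaired libraries had 4947 (mCAT 3) and 9997 (wt 1), the highest of all. The ratio of mCAT to wt within pairs had a median of 0.699 and ran from 0.473 (C1_5) to 0.903 (C2_1). Over all libraries the groups overlapped, at 4018 ± 1604 in mCAT and 6188 ± 2581 in wt (SD, n = 7 each).

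F13a1 was higher in mCAT in all 6 pairs. It had 15486 normalised counts in mCAT 5 and 15322 in wt 5, 30958 in mCAT 6 and 17109 in wt 6, and 31546 in mCAT 7 and 23218 in wt 7. It had 41309 in mCAT 1 and 29972 in wt 2, 35208 in mCAT 2 and 27942 in wt 3, and 24562 in mCAT 4 and 18966 in wt 4. The unpaired libraries had 23957 (mCAT 3) and 9920 (wt 1), the lowest of all. The ratio of mCAT to wt within pairs had a median of 1.33 and ran from 1.01 (C2_1), where the partners were almost equal, to 1.81 (C2_2). The groups overlapped, at 29004 ± 8447 in mCAT and 20350 ± 7129 in wt (SD, n = 7 each).

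Ly6c2 was abundant in every library. It ran from 55633 over a median of 68691 to 99621 normalised counts in mCAT libraries, and from 54228 over 72360 to 88171 in wt libraries. It was highest in mCAT 5 and wt 5 and lowest in wt 6, and it was higher in mCAT in 3 of 6 pairs. The near copy Ly6c1, 97.6% identical to Ly6c2 over 822 bases of transcript, had 85.4 to 324 normalised counts, and how reads shared by the copies were divided between them is not known. In wt 6, where Plac8 and Vcan were near their lowest, Ly6c2 still had 54228 normalised counts.

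The matrix glycoproteins also had narrower ranges than Plac8 and Vcan. Fn1 ran from 18512 over 30693 to 38225 normalised counts in mCAT libraries and from 20186 over 36327 to 41751 in wt libraries. Its lowest values were those of the partners mCAT 6 and wt 6. Thbs1 ran from 22547 over 28204 to 37168 in mCAT libraries and from 17248 over 29832 to 33711 in wt libraries. The genotypes overlapped for both genes, and partners differed in either direction: Fn1 was lower in mCAT in 4 of 6 pairs and Thbs1 higher in 4 of 6. The method keeps no strand, and Fn1, Thbs1, F13a1 and Vcan each overlap an annotated gene on the opposite strand, so reads of such a gene would be counted with them. S100a4 overlaps an annotated protein-coding gene on its own strand, Gm42674, identical to it over 302 bases of transcript (100%). Gm42674 has no row among the genes given, and how shared reads were assigned is not known.

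The first comparison set mCAT against wt libraries. The groups differ in the catalase, the Cre allele in Ccr2 and the CD45 marker together, so effects of these cannot be told apart. None of the 7 was called in the fit of mCAT against wt over 14 libraries (limma, Benjamini-Hochberg adjusted p under 0.05), in which 24 of 12096 genes were called, 0.198% (higher in mCAT, 0.0827%, and lower, 0.116%). S100a4 was lower by an estimated -0.59 on the log2 scale (SE 0.27, 95% interval -1.16 to -0.03, limma adjusted p = 0.878). F13a1 differed by 0.53 (SE 0.24, interval 0.02 to 1.04, limma adjusted p = 0.878). Both had an unadjusted limma p of 0.0415, and 649 genes had one under 0.05 in this fit. The estimates were 0.02 for Ly6c2 (interval -0.31 to 0.35), -0.09 for Fn1 (-0.50 to 0.32) and 0.12 for Thbs1 (-0.25 to 0.48). Plac8 (-0.31, interval -1.97 to 1.35) and Vcan (-0.11, -1.24 to 1.01) had the widest intervals of the 7 in this fit.

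Setting each mCAT library against its own partner narrowed these intervals. With the code stem as a block, 38 of 12096 genes were called, 0.314% (0.165% higher and 0.149% lower), and again none of the 7. S100a4 came nearest, at -0.53 (SE 0.11, 95% interval -0.76 to -0.30, limma adjusted p = 0.0618). F13a1 was at 0.41 (SE 0.10, interval 0.20 to 0.62, limma adjusted p = 0.166). For Plac8 the paired estimate was -0.07 (interval -0.36 to 0.21) and for Vcan 0.08 (-0.20 to 0.36), so genotype differences larger than these bounds lie outside the intervals. Ly6c2 was at 0.08 (-0.12 to 0.28), Fn1 at -0.05 (-0.23 to 0.14) and Thbs1 at 0.14 (-0.09 to 0.37). Ccr2, the gene that carries the recombinase in mCAT cells, fell by 0.80 in the same paired fit (SE 0.12, limma adjusted p = 0.00563). In the unpaired fit its difference was -0.68 (SE 0.24, limma adjusted p = 0.878) and it was not called, at 8391 ± 2975 normalised counts in mCAT and 13742 ± 5015 in wt libraries (SD, n = 7 each).

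**Figure D2:**
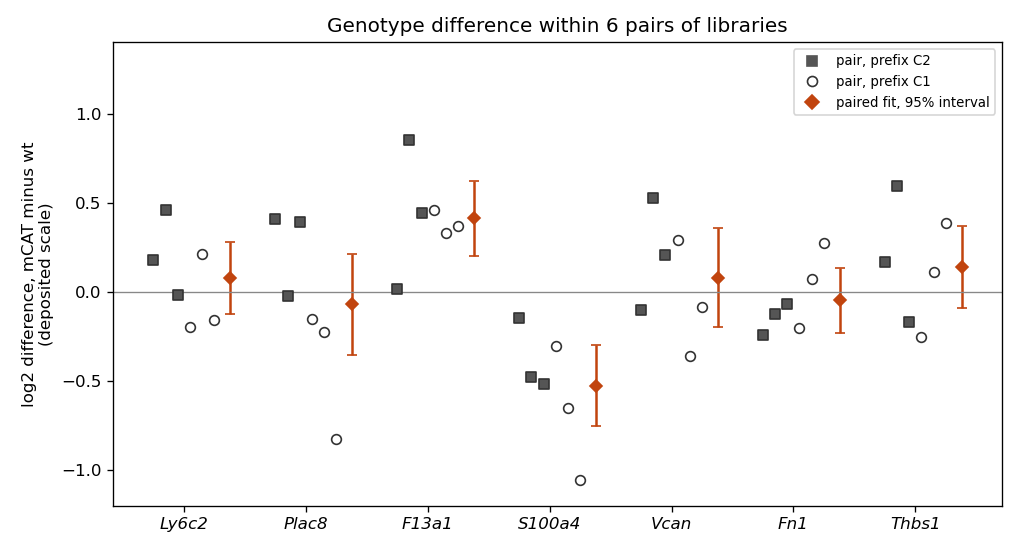
Difference of mCAT minus wt in the deposited log2 value of each monocyte gene within the 6 pairs; squares are pairs of prefix C2, open circles pairs of prefix C1, and diamonds with bars the paired estimate with its 95% interval. All 6 points of S100a4 lie below 0 and all 6 of F13a1 above it, while the other genes have points on both sides.

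The second comparison set prefix C2 against prefix C1. In the fit with genotype as a covariate and the stem as a random block, 328 of 12096 genes were called, 2.71% (1.6% higher and 1.11% lower with C2), but none of the 7 monocyte genes. Using stem means in place of libraries, 51 genes were called. Vcan averaged 184 ± 196 normalised counts with C2 (n = 6) and 566 ± 385 with C1 (n = 8, SD), a log2 difference of -1.46 (SE 0.40, 95% interval -2.30 to -0.62, limma adjusted p = 0.0577). The deposited scale compresses low counts, and Vcan had only 21.3 in wt 6. On log2 of the normalised count plus 1 the Vcan difference was -2.28 (SE 0.62, limma adjusted p = 0.0573). Plac8 averaged 11123 ± 13572 with C2 and 21864 ± 18429 with C1, a log2 difference of -1.65 (SE 0.67, interval -3.07 to -0.24, limma adjusted p = 0.213). The groups overlapped because stem C2_1 had levels like those of C1.

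Both differences depended on single stems. Without C2_1 they were -2.80 for Plac8 and -2.07 for Vcan and both were called (limma adjusted p = 0.00189 and 0.00191). Without C2_2 they were -1.02 and -1.06 (limma adjusted p = 0.723 and 0.431). Vcan was also called without wt 5 (-1.60, limma adjusted p = 0.0354), without mCAT 5 (-1.58, 0.0468) and with no block (-1.38, 0.0369). Prefix C2 holds only 3 stems, so leaving out 1 stem removes a large share of that group.

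The remaining genes showed smaller estimates. S100a4 had 4624 ± 2097 normalised counts with C2 and 5463 ± 2604 with C1 (log2 difference -0.27, interval -0.86 to 0.33). F13a1 had 22273 ± 7528 with C2 and 26479 ± 9645 with C1 (-0.14, -0.70 to 0.41). The log2 differences were 0.24 for Ly6c2 (-0.11 to 0.59), 0.11 for Thbs1 (-0.30 to 0.53) and -0.04 for Fn1 (-0.47 to 0.39). The genotype difference was not found to depend on the prefix: limma called 0 of 12096 genes in the interaction (0%; 339 had an unadjusted p under 0.05). The interval of the interaction was wide, from -0.45 to 1.13 for S100a4 and from -0.85 to 0.67 for F13a1. Within the prefixes, the S100a4 difference was -0.38 with C2 and -0.75 with C1, and that of F13a1 was 0.44 with C2 and 0.61 with C1.

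Across the 14 libraries the genes fell into blocks that changed together. Correlations below are of deposited log2 values with genotype means removed. They are descriptions over 14 libraries, of which 12 share stems in pairs, and 21 pairs of genes were examined. The C2 libraries come from only 3 stems. Plac8 averaged 28335 normalised counts in C2_1, against 2243 in C2_2 and 2792 in C2_4, and Vcan 434, 40.5 and 75.9. Correlations of these genes within C2, here and below, thus largely set stem C2_1 against the rest, and n counts libraries, not stems. Plac8 and Vcan had r = 0.95 (Spearman rho 0.93), and 0.93 without the pair of libraries farthest from the Plac8 median, wt 6 and wt 1. Within the prefixes r was 0.97 for C2 (n = 6) and 0.90 for C1 (n = 8). S100a4 went with them, at r = 0.82 with Plac8 (rho 0.74) and 0.79 with Vcan (rho 0.76). Within prefixes these were 0.99 and 0.96 for C2, and 0.72 and 0.85 for C1.

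A different block held Ly6c2, Thbs1 and Fn1, at r = 0.72 (rho 0.78) for Ly6c2 with Thbs1, 0.55 (rho 0.60) for Fn1 with Thbs1 and 0.54 (rho 0.57) for Ly6c2 with Fn1. Within prefixes, Ly6c2 with Thbs1 had 0.95 for C2 and 0.58 for C1. Over all libraries Ly6c2 and Plac8 had r = 0.15 (rho 0.10). Within C2, though, Ly6c2 and Plac8 had r = 0.86, against -0.15 within C1. Leaving out wt 1 gave -0.61 within C1, and leaving out mCAT 5 and wt 6 gave -0.27 over the other libraries, so no single value describes this pair of genes.

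F13a1 had negative correlations with the first block. Its r was -0.58 with Plac8 (rho -0.60), -0.67 with S100a4 (rho -0.64) and -0.42 with Vcan (rho -0.53). The pooled values leaned on few libraries: without wt 1 and mCAT 5 they were -0.38 with S100a4 and -0.08 with Vcan, and without wt 1 and wt 6 r with Plac8 was -0.60. Within prefixes F13a1 and Plac8 had r = -0.86 for C2 and -0.94 for C1, and -0.89 for C1 without wt 1. F13a1 and Vcan had -0.73 for C2 and -0.92 for C1, and -0.80 for C1 without wt 1.

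**Figure D3:**
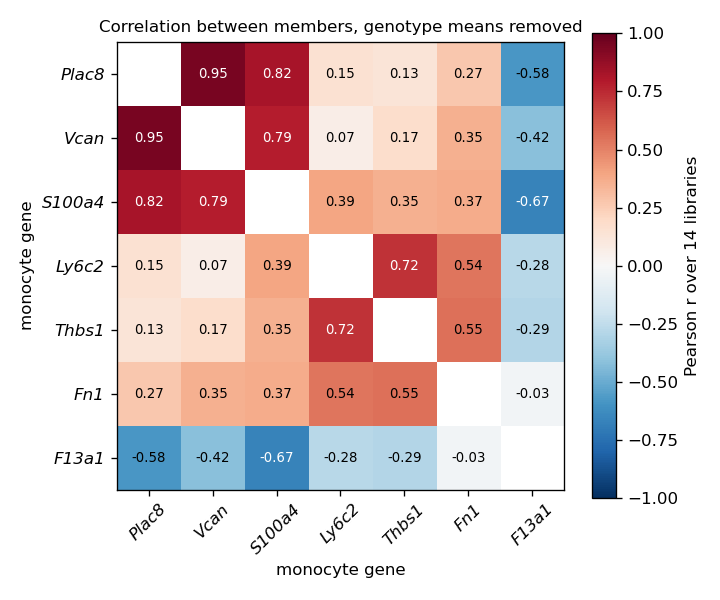
Pearson correlation between the monocyte genes over 14 libraries, from deposited log2 values with genotype means removed; red is positive and blue negative. Plac8, Vcan and S100a4 form 1 block (0.79 to 0.95), Ly6c2, Thbs1 and Fn1 a looser one (0.54 to 0.72), and F13a1 is negative with the first 3 genes.

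Macrophage maturation genes were set against these blocks. The 26 genes listed, among them Apoe, C1qa, Trem2 and Ms4a7, are known for lipid transport, complement, phagocytosis and lysosomes. Their mean deviation on the log2 scale was 0.06 in mCAT 5 and 0.20 in wt 5, 0.55 in mCAT 6 and 0.53 in wt 6, and 0.45 in mCAT 7 and 0.68 in wt 7. It was -0.10 in mCAT 1 and -0.04 in wt 2, -0.16 in mCAT 2 and -0.14 in wt 3, and -0.42 in mCAT 4 and -0.36 in wt 4. The unpaired libraries had -0.39 (mCAT 3) and -0.88 (wt 1). The libraries with the least Plac8 and Vcan thus had the most maturation transcripts, and wt 1, with the most Plac8 and Vcan, had the fewest. By mean deviation wt 1 was also highest for endothelial (0.70), fibroblast and pericyte (0.69), astrocyte and oligodendrocyte (0.57) and natural killer (0.44) markers. It was lowest for the macrophage defining markers (-0.33). For T cell (0.19), B and plasma cell (0.19), dendritic cell (0.23), platelet (-0.09) and neutrophil (-0.13) markers it was not highest. The part of such cells was not tested.

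Against this mean, Vcan had r = -0.93 (rho -0.85) and Plac8 r = -0.85 (rho -0.76) over 14 libraries. Without wt 1 and wt 7, which lay farthest from its median, r was -0.88 for Vcan and -0.77 for Plac8. Within prefixes the values were -0.91 for Vcan and -0.97 for Plac8 with C2 (n = 6), and -0.95 and -0.94 with C1 (n = 8). The C2 values again largely set stem C2_1 against the rest. S100a4 had r = -0.59 (rho -0.37) over all libraries, -0.95 within C2 and -0.69 within C1, and -0.54 within C1 without wt 1.

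F13a1 showed the opposite sign within each prefix. Its pooled r with the maturation mean was only 0.33 (rho 0.25), and -0.06 without wt 1 and wt 7. Within C2 it was 0.90 (n = 6) and within C1 0.99 (n = 8), and it remained 0.98 within C1 without wt 1. The C2 libraries had more maturation transcripts at the same F13a1 level, which separates the 2 rows of points. A gene often listed with classical monocytes was therefore higher, within each prefix, in the libraries with more maturation transcripts. Ly6c2 (0.23), Fn1 (-0.14) and Thbs1 (0.03) had small pooled r with the mean. Within C2, Ly6c2 had -0.75, Thbs1 -0.57 and Fn1 -0.38, against 0.03, -0.18 and 0.05 within C1. Leaving out wt 1 moved the C1 values to 0.75 for Ly6c2, 0.46 for Thbs1 and 0.53 for Fn1, so they depended on that library.

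**Figure D4:**
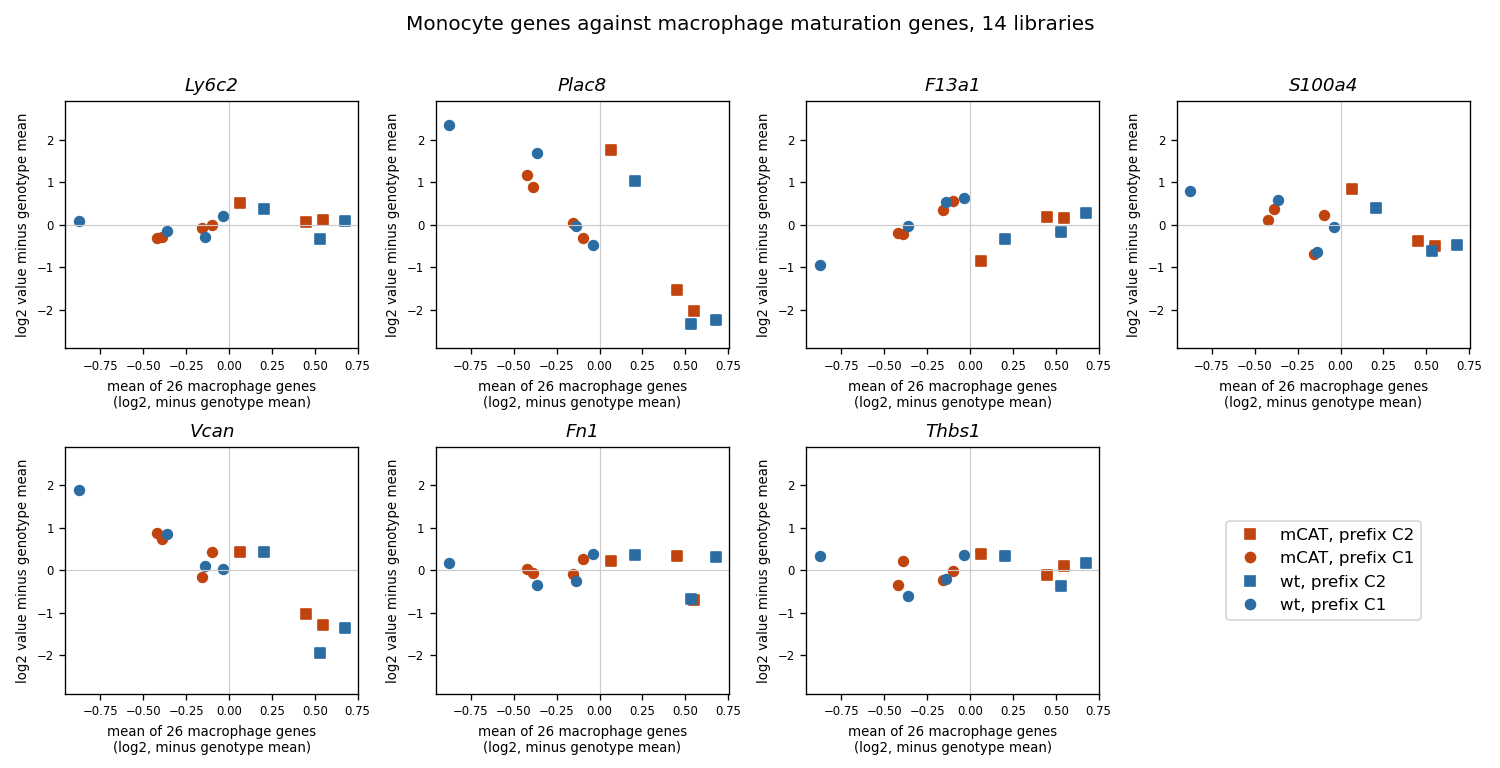
Deposited log2 value of each monocyte gene (vertical) against the mean of 26 macrophage maturation genes (horizontal), both with genotype means removed; squares are prefix C2, circles C1, orange mCAT and blue wt. Plac8 and Vcan fall along the axis (r = -0.85 and -0.93), F13a1 climbs along it within each prefix (0.90 for C2, 0.99 for C1), and Ly6c2, Fn1 and Thbs1 have small pooled r (0.23, -0.14 and 0.03).

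Markers that microglia share with macrophages moved with the same axis. Summed over 8 markers they ran from 45036 to 92273 normalised counts with C2 and from 18766 to 46882 with C1. Their mean had r = -0.81 with Plac8, -0.88 with Vcan and -0.52 with S100a4 over 14 libraries. Of the markers that define microglia, Tmem119 had 550 to 3500 normalised counts, P2ry12 563 to 1453 and Sall1 1.58 to 36.2, and none of the 8 was at 0 in any library. Their part in the pattern was not tested. The summed T cell markers ran from 2917 to 4615 with C2 and from 2912 to 8392 with C1, where Il7r alone had 2047 to 8084. The mean of the T cell genes tested had r = 0.03 to Plac8, 0.12 to Vcan and -0.29 to S100a4. Between genotypes 7 of 9 T cell genes were lower in mCAT and 2 higher (median -0.47), where 49.7% of all genes tested were higher. None of the 9 was called (0.198% of all genes tested), and their part was not tested. Platelet markers had r = 0.57 with Plac8, 0.52 with S100a4, 0.48 with Vcan, -0.18 with F13a1 and -0.21 with Thbs1, and their part was not tested either. Endothelial and dendritic cell markers were not correlated with the monocyte genes. The endothelial mean deviation was lowest in wt 6 (-0.59), wt 7 (-0.53), mCAT 7 (-0.51) and mCAT 6 (-0.44), the libraries with the least Plac8. It was highest in wt 1 (0.70) and mCAT 5 (0.68), but -0.11 in mCAT 4. The dendritic cell mean was lowest in the same libraries (-0.35 to -0.19) and highest in mCAT 3 (0.53). Their part was not tested.

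Other genes of the classical monocyte gave a mixed picture between prefixes. Of 27 tested, 2 fell and 1 rose with C2, where 1.11% of all genes tested fell and 1.6% rose. Of the 27 differences 20 were below 0 and 7 above, with a median of -0.43 (all genes tested, 49.0% above 0, median -0.01). Tppp3 fell by 1.30 on the log2 scale (SE 0.30, limma adjusted p = 0.0246). Lyz2, lysozyme, which macrophages also express, rose by 1.43 (SE 0.25, limma adjusted p = 0.00443). The mean of this list had r = 0.85 with Plac8, 0.89 with Vcan, 0.79 with S100a4 and -0.24 with F13a1. Between genotypes 0 of the 27 were called by limma over 14 libraries (all genes tested, 0.198%) and the median was -0.11 (all genes, -0.00). In the paired fit 1 of the 27 was called, Ccr2, as given above, where 0.149% of all genes tested were called lower.

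Of the 26 maturation genes, 9 rose with C2 and 0 fell, where 1.6% of all genes tested rose and 1.11% fell. The median difference was 0.81, and -0.01 over all genes tested. Ms4a7, a surface protein of macrophages, had 14696 ± 4354 normalised counts with C2 and 3866 ± 922 with C1 (log2 difference 1.90, SE 0.22, limma adjusted p = 0.000103). Apoe, the lipid carrier, rose by 1.89 (SE 0.28, adjusted p = 0.00107 by limma) and Trem2, a lipid-sensing receptor, by 1.53 (SE 0.24, limma adjusted p = 0.00176). C1qa and C1qb, chains of complement C1q, rose by 1.07 and 0.94, and Fabp5, a fatty acid carrier, by 1.36. Between genotypes none of the 26 was called, with 24 of 26 differences above 0 (median 0.25), where 49.7% of all genes tested were above 0 (median -0.00). Pairing gave 1 call, Gpnmb, a lysosomal glycoprotein, at 0.48 (SE 0.09, limma adjusted p = 0.0354), where 0.165% of all genes were called higher.

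Regulators and matrix partners of these genes were also counted. Of 14 monocyte transcription factors, Cebpa rose with C2 by 0.92 (SE 0.21, limma adjusted p = 0.0209), where 1.6% of all genes tested rose. None of the 14 was called between genotypes. Of 15 tested receptors and partners of the matrix proteins, none was called in any of the 3 fits. Cd47, a receptor of thrombospondin-1, had a C2 difference of -0.55 (SE 0.15, limma adjusted p = 0.062). Tgm2, a transglutaminase like factor XIII, had -1.12 (SE 0.35, limma adjusted p = 0.10). The largest called prefix differences among non-classical monocyte genes were those of Fabp4 (2.14) and Cx3cr1 (1.96), 2 of 10 tested, where 1.6% of all genes rose.

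The genes most like each monocyte gene over the 14 libraries, by Pearson r after genotype means were removed, were ranked over all genes tested. Plac8 was closest to Klrk1, an activating receptor best known from killer cells (r = 0.99, rho 0.97), Oas1a, an interferon-induced enzyme (0.98, rho 0.98), and Ms4a4c (0.98, rho 0.95), which is also in the list of other classical monocyte genes. Summed markers of natural killer cells were 53.7 to 320 normalised counts in mCAT libraries and 110 to 456 in wt libraries, whereas Klrk1 alone had 224 to 2269, and their mean had r = 0.07 with Plac8. Vcan was closest to Pid1 (0.97, rho 0.87), Cd244a (0.96, rho 0.94) and Samhd1, a nucleotide hydrolase (0.96, rho 0.93). S100a4 was closest to Pglyrp1 (0.95, rho 0.89), Pacsin3 (0.90, rho 0.88) and Ms4a6c (0.89, rho 0.83).

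F13a1 was closest to Plekha1 (0.96, rho 0.95), Chaf1b, a subunit of a chromatin assembly factor (0.96, rho 0.93), and Opa1, a mitochondrial fusion protein (0.94, rho 0.89). Nearest to Ly6c2 were Foxk1 (0.82, rho 0.79), Tmem14c (0.81, rho 0.77) and Bcs1l (0.79, rho 0.82). Nearest to Thbs1 were Sf3b1, Mrc1 and Marchf6, at 0.86, 0.86 and 0.85. Nearest to Fn1 were Cox6a1, Gstp1 and Cfb, at 0.80, 0.78 and 0.77, of which Cox6a1 had rho 0.45. The closest genes of Plac8, Vcan and F13a1 thus lay nearer than those of Ly6c2, Fn1 and Thbs1, whose own levels varied the least of the 7.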

How the data were processed

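Per the submitters' processing notes, FastQC, fastp, Salmon and the build GRCm39 were used; for versions, annotation and gene filters the sources used here say nothing. The authors deposited values named as counts that are in fact log2 values: 0 are whole numbers, and all 14 libraries share the lowest value 5.96. The planned test for counts was therefore replaced. The normalised count inverts a variance-stabilising transformation whose constant was taken from that lowest value. Depth is a rough estimate from low values, of which 53.2% to 73.2% lay within 0.15 of a whole read; whole reads were not recovered, and depth covers counting error only.

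Genes with a normalised count of at least 10 in at least 7 libraries were tested on the deposited log2 values with limma 3.58.1 in R 4.3.3 (mean-variance trend, robust moderation with statmod 1.5.0), checked on simulated data. P-values are 2-sided and adjusted by Benjamini-Hochberg over 12096 genes, with a threshold of 0.05. Log2 differences are on the deposited scale, which compresses low counts. The prefix and interaction fits used the stem as a random block (consensus correlation 0.463 and 0.430). The genotype fit had no block, and the paired fit used 12 libraries. Partners of the 6 stems correlated at 0.232 to 0.659, so stems were taken to pair libraries, although no label says that a stem marks a host. No label says that libraries of a group came from separate animals, so p-values measure the spread between these samples.

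The 7 genes, the gene lists and the tests were chosen with earlier results of these data known; the natural killer list was added after Klrk1 was seen. Named beside the 7 genes are the 3 most alike of each, and of each list up to 6 called genes or, with none called, the 2 of smallest p. Ccr2, Gpnmb and Mmp8, called only in the paired fit, and the genes most opposed to a monocyte gene were named after their values were seen. A called gene of the classical monocyte list is counted but not reported here by name. Alternatives were a block by title number, prefix as a covariate, fits within a prefix, no block, stem means, no filter, a minimum of 50, no trend, log2 of the normalised count plus 1, centring on the median and leaving out each library. Leaving out each stem was added after seeing the data. Promoter sequences are from RefSeq on GRCm38.p6, not the build of the deposited values.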

Additional observations from a re-analysis of the deposited data

Results flagged for a closer look

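Among 28 groups of values, 7 genes by 2 genotypes and 2 prefixes, 1 value lay apart from the rest of its group, where chance gives about 1 in 20 groups. Fn1 in mCAT 6 had 18512 normalised counts, against 28292 in the next lowest mCAT library, and this gap was 0.585 of the group's range (critical value 0.568 for 7 samples). Its partner wt 6 was also the lowest of its group for Fn1, at 20186. Depth in mCAT 6 was estimated at 45.6 M reads (M, mega).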

How the results depend on the processing

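None of the 168 alternative values of the 7 genes between genotypes, nor of the 133 in the interaction, passed the threshold, and of 203 for the prefix 5 did, as given in the report. The count of genes called between genotypes was 24. It became 38 with the replicate block by code stem, 15 within prefix C1 and 9 within C2, ran from 18 to 25 with 1 library left out, and was 25 with a block by title number. The prefix count was 328. It became 903 with no replicate block and 51 with stem means, and ran from 55 (without stem C2_2) to 1170 (without stem C2_1) with 1 library or stem left out. The interaction count was 0 under every alternative run. With 1 library left out, adjusted p ran from 0.587 to 0.997 for F13a1 and from 0.633 to 0.997 for S100a4, and over all alternatives their smallest were those of the block.

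Signs turned only among values that were not called. Between genotypes Vcan became 0.0099 on log2 of the normalised count plus 1, 0.079 with the stem block and 0.21 within C2, Plac8 0.26 within C2 and Ly6c2 -0.12 within C1. With 1 library left out the ranges were -0.70 to 0.076 for Plac8, -0.44 to 0.20 for Vcan, -0.068 to 0.080 for Ly6c2 and -0.20 to 0.026 for Fn1. For the prefix, with 1 library or stem left out, they were -0.35 to 0.089 for F13a1, -0.22 to 0.29 for Fn1 and -0.023 to 0.22 for Thbs1, and for the interaction, with 1 library left out, -0.28 to 0.20 for F13a1, -0.31 to 0.0061 for Fn1 and -0.074 to 0.31 for Thbs1. The cause was not tested.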

Other observations

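Gene lists of other cell types that were counted but not described above gave few calls. Of all genes tested, 1.6% rose and 1.11% fell with C2, and 0.165% rose in mCAT in the paired fit. Of 7 neutrophil genes tested, Cxcr2 fell with C2 by 0.68 (limma adjusted p = 0.0261), at 3.61 ± 3.98 normalised counts for C2 and 29.4 ± 15.1 for C1, and Mmp8 rose in mCAT in the paired fit by 0.47 (limma adjusted p = 0.0332). Of 7 microglia genes, Olfml3, Cx3cr1 and Gpr34 rose with C2 by 2.12, 1.96 and 1.31. Of 5 B and plasma cell genes, Xbp1 fell with C2 by 0.77 (limma adjusted p = 0.0216). Of 11 macrophage defining markers, Lyz2 was called.

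No gene was called between the prefixes or genotypes among 3 platelet, 9 T cell, 8 dendritic cell, 5 endothelial, 3 fibroblast and pericyte, 6 astrocyte and oligodendrocyte and 4 natural killer genes tested. The smallest p-values for C2 against C1 belonged to Itga2b (-0.24) and Ppbp (-0.17) among platelet genes, Cd2 (-0.33) and Cd3g (-0.19) among T cell genes, and Zbtb46 (-0.72) and Flt3 (-0.94) among dendritic cell genes. They belonged to Flt1 (-0.75) and Pecam1 (-0.66) among endothelial genes, Dcn (-0.40) and Rgs5 (-0.08) among fibroblast and pericyte genes, Olig1 (-0.46) and Gfap (0.30) among astrocyte and oligodendrocyte genes, and Klrb1c (0.27) and Gzmb (-0.36) among natural killer genes. Cx3cr1 and Lyz2 each stand in more than 1 list.

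Genes most opposed to Plac8 across the 14 libraries, with genotype means removed, were Adi1 and Ldlrad3 at r = -0.96 each (rho -0.93 and -0.94). Most opposed to Vcan were Scoc (-0.97, rho -0.87) and Acbd6 (-0.96, rho -0.95), and to F13a1 Map3k14 and Nupr1 (-0.92 each, rho -0.92 each).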
